A study of Vitis vinifera with 219 samples.

Results

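The last stage of the Cabernet Sauvignon ripening course of 2013 was described from 12 RNA-seq libraries of grape berry pericarp, which make up 4 of the 73 groups of 3 libraries in the series. They comprise 3 libraries each from days 43, 49, 56 and 63 after veraison, the moment at which berries begin to colour and soften. Day 63 was set against day 43, and days 49 and 56 gave the course between them. The libraries were chosen by their labels alone, as time points 10 to 13 of that season. All 12 came from unthinned vines of clone FPS 8, grown near Modesto in California on 5C rootstock, and no group was treated. Each replicate was a pool of berries from several clusters of a block of vines, ground with the seeds removed. Day 63 and day 42 of 2014, and day 63 and day 42 of 2012, with 3 libraries each, served to set the change of 2013 beside the same interval in other seasons. Those berries came from the same cultivar and site and were also unthinned.

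Late ripening of a grape berry is the phase after most hexose and anthocyanin has already been stored in the vacuoles of flesh and skin. The cell walls of the fruit have been loosened by expansins and pectin enzymes, and sugar enters through hexose, sucrose and SWEET transporters. The phenylpropanoid route from phenylalanine feeds anthocyanins, flavonols, tannins and stilbenes, and abscisic acid and NAC transcription factors are known regulators of the process. Genes in the table carried identifiers alone. Names and roles of the genes below were taken from published use of these identifiers. Of 112 names, 43 stand as a symbol or synonym on the same chromosome in the RefSeq gene table of Vitis vinifera (assembly ASM3070453v1), which shares no identifier with the deposited table (0 matches by ID). The other names had no such check. Stretches of neighbouring identifiers, such as the stilbene synthase and small heat shock runs, may hold other genes.

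The values were RPKM as computed by the authors, that is, read numbers scaled by the length of the gene model and by the mapped reads of the library. The depth of each library is unknown. Their sums over genes lay between 830865 and 867849 RPKM at day 63 and between 897159 and 957847 RPKM at day 43, with 20976 to 21769 genes above 0 in the 12 libraries. Correlations of log2(RPKM + 1) within a day lay between 0.987 and 0.992, against 0.954 to 0.976 between day 63 and day 43 libraries, and no pair of columns was identical. In a principal component analysis of these libraries, PC1 (46.7% of variance) placed day 63 at 40.5 to 54.5 and day 43 at -41.2 to -21.9. Labels for sugar content gave 27.13, 27.74 and 26.36 g per 100 ml at day 63, against 22.5, 24.46 and 24.47 g per 100 ml at day 43. The difference of 3.27 g per 100 ml had the smallest two-sided p that an exact permutation test of 3 against 3 can give (p = 0.1). Days 49 and 56 averaged 24.0 ± 2.23 and 24.3 ± 0.581 g per 100 ml (SD, n = 3 each).

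A set of 58 genes had at least 4 RPKM in every library of day 36 in 2013 and under 1 RPKM in all 12 libraries, a difference for which the labels name no batch. Their mean log2(RPKM + 1) was 0.0869 to 0.147 in the 12 libraries and 0.0836 to 0.728 in the 39 Cabernet Sauvignon libraries of 2014, but 3.56 to 4.03 in the 39 of 2012. Of the 30 earlier libraries of 2013, 1 was low too. The split falls between day 36 and day 43 of 2013, so every contrast within the 12 libraries lies on 1 side of it. Markers of ripe skin and flesh were present in all 12: the colour regulator MYBA1 (VIT_02s0033g00410) had 14.2, 14.0 and 12.0 RPKM at day 63, against 12.8, 13.8 and 17.8 RPKM at day 43, and GST4 (VIT_04s0079g00690), which carries anthocyanins to the vacuole, 472, 344 and 307 RPKM at day 63, against 624, 493 and 647 RPKM at day 43. Of 3 markers of seed coat and green tannin tissue, ANR (VIT_00s0361g00040) lay between 0.532 and 1.65 RPKM and LAR1 (VIT_01s0011g02960) between 0.0835 and 0.304 RPKM over the 12 libraries, whereas MYBPA1 was higher at day 63 and is described with the tannin genes. Presence in all 12 did not mean a steady level. UFGT and HT6, described below, were also present in all 12. UFGT was not called (log2 change -0.21, adjusted p = 0.767 in limma), but HT6 was clearly lower at day 63 (-1.64, adjusted p = 1.83e-11). In pooled tissue, fewer cells of a type and less RNA per cell cannot be told apart.

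Between day 43 and day 63, most genes of wall loosening, some sugar transporters and an abundant chitinase fell, while a minority of the genes of the phenylpropanoid entry, the flavonol and tannin branches, stilbene synthesis and abscisic acid response rose. A gene was called at a Benjamini-Hochberg adjusted p under 0.05 in limma and a log2 change of at least 1. Of 21425 genes tested, 595 were higher (2.78%) and 791 lower (3.69%) at day 63 than at day 43, with a median log2 change of 0. Groups that did not overlap were far more common, with 28.6% of genes higher in all 3 day 63 libraries than in any day 43 library and 27.1% lower. The shares of called genes, 2.78% and 3.69%, are the background for every list below. As 20039 of the genes tested were not called, a small list with few or no calls does not stand out.

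Most of the calls between neighbouring days came in the last week. From day 43 to day 49, 75 genes were called higher (0.35%) and 32 lower (0.149%) at day 49. From day 49 to day 56, 48 were higher (0.224%) and 59 lower (0.275%) at day 56. From day 56 to day 63, 94 were higher (0.439%) and 316 lower (1.47%) at day 63. The first count rested on single libraries: it was 174 in all without day 49 replicate 1, 36 without day 49 replicate 3 and 60 without day 43 replicate 1, against 107. The second, also 107, was 50 without day 49 replicate 1. The split of the first step into 75 and 32 became 53 and 42 under quantile normalization. That of the second, 48 and 59, was 61 and 206 with a pseudocount of 0.1, and 23 and 14 with a pseudocount of 5.

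**Figure D1:**
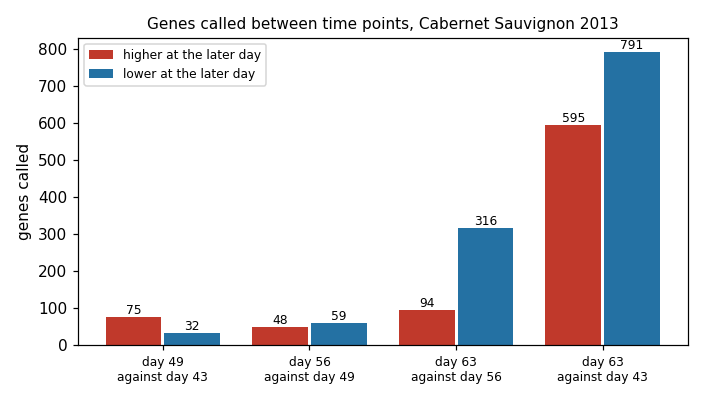
Number of genes called (vertical axis) as higher or lower at the later day, for the 3 successive steps and for day 63 against day 43, Cabernet Sauvignon 2013, 3 libraries a day. The last step shows 316 lower and 94 higher genes, against 75 or fewer in each direction in the first 2 steps.

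The means of days 49 and 56 do not enter the change between day 63 and day 43, although all libraries shared 1 estimate of the error. Of the 595 higher genes, 518 (87.1%) were also higher at day 56 than at day 49, against 45.8% of all genes tested. Of the 791 lower genes, 641 (81.0%) were lower at day 56 than at day 49, against 50.3% of all. The median log2 change of the higher genes was 0.35 from day 43 to 49, 0.38 from day 49 to 56 and 0.67 from day 56 to 63. For the lower genes it was -0.24, -0.32 and -0.88 in the same order. Higher and lower genes alike were chosen on the means of days 43 and 63. Those means enter the steps from day 43 to 49 and from day 56 to 63, and may inflate their medians. Only the step from day 49 to 56 is free of that choice, so its median cannot be compared in size with the others.

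Most softening genes fell. Of 8 tested, 5 were called lower and none higher, with a median log2 change of -1.53. The expansins loosen the bonds between wall polymers without cutting them. EXPA14 (VIT_13s0067g02930) had 214, 89.6 and 35.8 RPKM at day 63, against 999, 531 and 918 RPKM at day 43, and every day 63 library lay below every day 43 library. Its log2 change was -3.14, SE 0.70, adjusted p = 0.000108. EXPB4 (VIT_15s0021g02700), the most abundant expansin here, had 569.8, 380.1 and 126 RPKM at day 63, against 2568, 1359 and 2143 RPKM at day 43 (log2 change -2.70, SE 0.63, adjusted p = 0.00022). At days 49 and 56 its libraries held 1114, 1229 and 672 RPKM at day 49 and 1450.1, 1768 and 1784 RPKM at day 56, so the course between was not a steady decline. EXPA18 (VIT_17s0053g00990) showed the largest fall of the list, with 5.10, 2.55 and 1.09 RPKM at day 63, against 47.8, 31.3 and 76.8 RPKM at day 43 (log2 change -3.80, SE 0.54, adjusted p = 2.1e-09). EXPA19 (VIT_18s0001g01130), also high at day 43, had 493, 371 and 286 RPKM at day 63, against 941, 728 and 926 RPKM at day 43 (log2 change -1.20, SE 0.17, adjusted p = 1.62e-09). A pectate lyase, PL (VIT_17s0000g09810), which cuts pectin, had 20.8, 15.1 and 6.92 RPKM at day 63, against 61.2, 34.0 and 61.6 RPKM at day 43 (log2 change -1.87, SE 0.63, adjusted p = 0.0119). Its call was lost without day 63 replicate 3 (log2 change -1.46, adjusted p = 0.108) and without day 43 replicate 1 (-1.73, adjusted p = 0.0526). The xyloglucan endotransglucosylase XTH (VIT_06s0061g00550), which rejoins hemicellulose chains, was not called (log2 change -1.02, SE 0.80, adjusted p = 0.358). It had 1836, 1159.5 and 776 RPKM at day 63, against 2648, 1909 and 2733 RPKM at day 43. Day 63 replicate 1 was the highest of the 3 day 63 libraries for all 6 of these genes.

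Sugar genes moved in both directions: 4 of 15 were called lower and 1 higher, with a median of -0.20. HT6 (VIT_18s0122g00850), a hexose transporter of the vacuole membrane, had 36.6, 26.0 and 28.7 RPKM at day 63, against 105, 85.3 and 97.7 RPKM at day 43 (log2 change -1.64, SE 0.21, adjusted p = 1.83e-11). Its mean was lower at each time point than at the one before, but the libraries of days 49 and 56 overlapped. They held 65.2, 62.4 and 47.9 RPKM at day 49 and 50.9, 58.7 and 58.9 RPKM at day 56. HT2 (VIT_18s0001g05570), also a hexose transporter, had 0.416, 0.483 and 0.194 RPKM at day 63, against 5.20, 2.87 and 3.30 RPKM at day 43 (log2 change -1.79, SE 0.21, adjusted p = 1.27e-12). With a pseudocount of 5 its change was -0.70 and not called. HT3 (VIT_11s0149g00050), another hexose transporter, had 5.93, 5.92 and 3.73 RPKM at day 63, against 16.4, 9.34 and 13.9 RPKM at day 43 (log2 change -1.19, SE 0.25, adjusted p = 4.23e-05). SWEET10 (VIT_17s0000g00830), which lets sugar pass across the plasma membrane, had 54.1, 35.2 and 35.0 RPKM at day 63, against 132, 73.1 and 131 RPKM at day 43 (log2 change -1.39, SE 0.42, adjusted p = 0.00493). Its libraries between held 41.7, 72.2 and 41.0 RPKM at day 49 and 31.4, 26.1 and 51.7 RPKM at day 56. HT5 (VIT_05s0020g03140), a hexose transporter known to respond to abscisic acid and pathogens, went the other way, with 9.23, 11.4 and 8.97 RPKM at day 63, against 2.04, 3.08 and 2.81 RPKM at day 43 (log2 change 1.58, SE 0.33, adjusted p = 4.24e-05). With a pseudocount of 5 its change was 0.96 and not called. The most abundant member, SWEET15 (VIT_01s0146g00260), had 1216, 1090.4 and 1209 RPKM at day 63, against 1196, 1471 and 1377 RPKM at day 43, and the groups overlapped (log2 change -0.20, SE 0.47, adjusted p = 0.841). The second vacuole membrane transporter TMT2 (VIT_03s0038g03940) had 82.4, 76.9 and 86.6 RPKM at day 63, against 117, 109 and 124 RPKM at day 43 and was not called (log2 change -0.50, SE 0.20, adjusted p = 0.0405). GIN2 (VIT_02s0154g00090), a vacuolar invertase that splits sucrose, had 8.24, 10.1 and 9.86 RPKM at day 63, against 4.97, 4.84 and 5.26 RPKM at day 43 and was not called, since its change was under the size threshold (log2 change 0.78, SE 0.18, adjusted p = 0.000118).

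**Figure D2:**
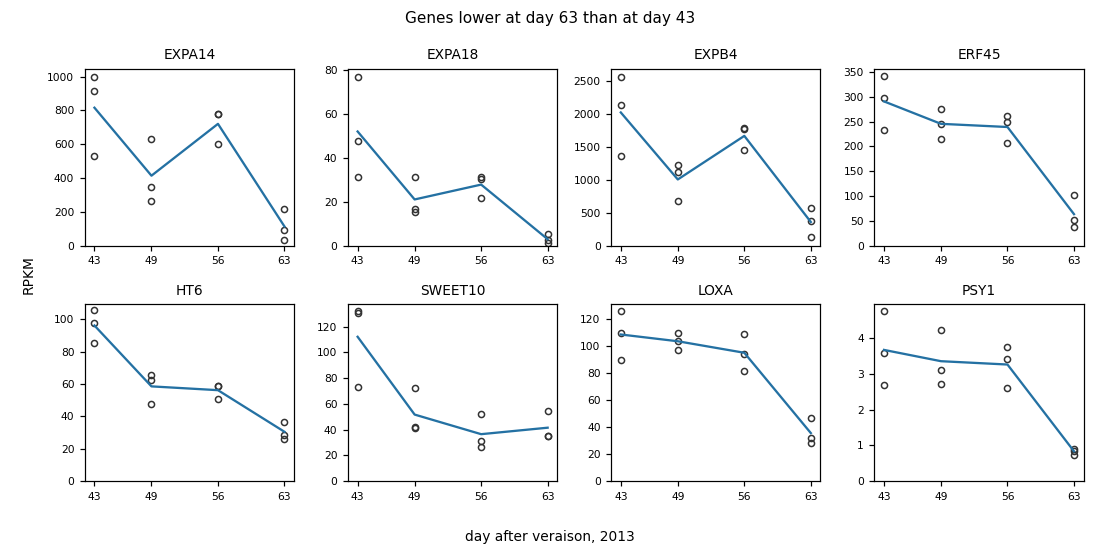
RPKM (vertical axes, each from 0) against day after veraison for 8 genes called lower at day 63 than at day 43. Circles are single libraries, 3 a day, and lines join the means; HT6 stepped down at every time point, whereas ERF45 and LOXA fell mainly between days 56 and 63.

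Among regulators of ripening, ERF45 (VIT_04s0008g06000), an ethylene response type factor, fell most. It had 101, 50.9 and 38.3 RPKM at day 63, against 297, 234 and 342 RPKM at day 43, with no overlap (log2 change -2.28, SE 0.33, adjusted p = 3.16e-09). Days 49 and 56 were still high, with 246, 276 and 216 RPKM at day 49 and 207, 261 and 249 RPKM at day 56, and the step from day 56 to day 63 alone was -2.01 (SE 0.33, adjusted p = 8.32e-07). The other 3 factors of that list were not called. bHLH75 (VIT_17s0000g00430) came closest, with 317, 252 and 241 RPKM at day 63, against 541, 481 and 526 RPKM at day 43 (log2 change -0.94, SE 0.25, adjusted p = 0.00135).

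None of the 5 NAC factors was called, and their median change was 0.46. NAC11 (VIT_14s0108g01070) had 118, 121 and 128 RPKM at day 63, against 62.7, 80.8 and 83.1 RPKM at day 43 (log2 change 0.70, SE 0.22, adjusted p = 0.00753), so the groups did not overlap but the change was below the size threshold. NAC13 (VIT_02s0012g01040) had 109, 105 and 103 RPKM at day 63, against 84.3, 74.5 and 95.5 RPKM at day 43 (log2 change 0.32, SE 0.21, adjusted p = 0.253). NAC33 (VIT_19s0027g00230), known to end photosynthesis and growth at the onset of ripening, had 6.88, 4.86 and 4.30 RPKM at day 63, against 9.55, 9.44 and 11.7 RPKM at day 43 (log2 change -0.84, SE 0.23, adjusted p = 0.00222). Among the alternatives run, it reached the call only without day 63 replicate 1 (adjusted p = 0.00106). NAC60 (VIT_08s0007g07670), a regulator of ripening and senescence, had 29.3, 35.9 and 31.7 RPKM at day 63, against 13.1, 14.7 and 24.3 RPKM at day 43 (log2 change 0.90, SE 0.24, adjusted p = 0.0014), and was called only without day 43 replicate 3 (1.16, adjusted p = 0.000238).

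The genes of the last anthocyanin steps were mostly not called, as were 20039 of all 21425 genes tested. Of 9, 1 was lower and none higher, with a median of -0.12. MYBA1, given above, changed by -0.12 (SE 0.39, adjusted p = 0.897). UFGT (VIT_16s0039g02230), the glucosyltransferase that completes an anthocyanin, had 28.6, 19.6 and 22.0 RPKM at day 63, against 31.5, 21.7 and 28.6 RPKM at day 43 (log2 change -0.21, SE 0.39, adjusted p = 0.767). GST4 was lower in every day 63 library, yet its change did not pass the test (log2 change -0.67, SE 0.59, adjusted p = 0.434). That SE rests on the spread within all 73 groups, not on these 2 days alone. The exception, VIT_16s0050g00910, stands in a pair of transporters linked to anthocyanin storage. It had 71.6, 48.5 and 43.5 RPKM at day 63, against 116, 92.1 and 125 RPKM at day 43 (log2 change -1.03, SE 0.41, adjusted p = 0.0375). The call was lost without any 1 of 4 libraries (day 63 replicate 2 or 3, day 43 replicate 1 or 3), where the adjusted p was 0.0967 to 0.141, and with a pseudocount of 0.1 (0.0525) or 5 (change -0.98).

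Upstream, 2 of 11 flavonoid core genes were called higher and none lower (median 0.15). DFR (VIT_18s0001g12800), the reductase shared by anthocyanins and tannins, had 141, 118 and 137 RPKM at day 63, against 52.9, 62.9 and 62.1 RPKM at day 43 (log2 change 1.14, SE 0.16, adjusted p = 2.96e-09). FLS (VIT_18s0001g03470), which makes flavonols, had 15.5, 23.3 and 18.6 RPKM at day 63, against 3.05, 4.00 and 6.36 RPKM at day 43 (log2 change 1.90, SE 0.50, adjusted p = 0.00111). Its means over days 49 and 56 fell between those of the ends, with 3.04, 6.88 and 10.3 RPKM at day 49 and 9.41, 10.6 and 11.8 RPKM at day 56. Of the 3 chalcone synthases that open the flavonoid route, none was called: CHS3 (VIT_05s0136g00260) had 303, 192 and 184 RPKM at day 63, against 356, 257 and 368 RPKM at day 43, and CHS2 (VIT_14s0068g00920) had 149.7, 133 and 114 RPKM at day 63, against 81.8, 74.7 and 96.2 RPKM at day 43. CHS2 was higher in each day 63 library than in any day 43 library (log2 change 0.64, SE 0.36, adjusted p = 0.158). In the run of 27 identifiers that holds the flavonoid 3',5'-hydroxylases, which set the third hydroxyl of blue anthocyanins, 17 were tested and none was called (median 0). The most abundant, VIT_06s0009g02830, had 33.2, 19.9 and 21.1 RPKM at day 63, against 27.2, 24.3 and 32.2 RPKM at day 43 (log2 change -0.19, SE 0.32, adjusted p = 0.729), and VIT_06s0009g03120 had 18.6, 16.9 and 14.7 RPKM at day 63, against 14.3, 19.3 and 18.8 RPKM at day 43 (log2 change -0.05, SE 0.25, adjusted p = 0.954).

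In the tannin list, 2 of 8 genes were called higher and none lower (median 0.09). MYBPA1 (VIT_15s0046g00170), a MYB regulator of tannin genes, had 58.8, 44.3 and 54.1 RPKM at day 63, against 4.44, 9.11 and 6.17 RPKM at day 43. That is the largest rise of any list member called (log2 change 2.85, SE 0.40, adjusted p = 1.26e-09), and the libraries between held 6.27, 19.5 and 10.4 RPKM at day 49 and 24.7, 18.9 and 20.7 RPKM at day 56. LAR2 (VIT_17s0000g04150), a leucoanthocyanidin reductase of tannin synthesis, had 9.18, 11.4 and 11.4 RPKM at day 63, against 3.16, 3.98 and 4.86 RPKM at day 43 (log2 change 1.23, SE 0.39, adjusted p = 0.00726). Its change was 0.80 and not called with a pseudocount of 5. ANR and LAR1, the other tannin enzymes, were near 0 as given above. Their log2 changes were 0.26 (adjusted p = 0.652) and -0.03 (adjusted p = 0.987).

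At the entry from phenylalanine, 3 of 14 genes were called higher and none lower (median 0.02). C4H (VIT_06s0004g08150), cinnamate 4-hydroxylase, had 123, 114 and 107 RPKM at day 63, against 51.9, 49.1 and 66.2 RPKM at day 43 (log2 change 1.04, SE 0.26, adjusted p = 0.000714). Its change lay close to the size threshold, between 0.95 and 0.99 without day 63 replicate 1, day 43 replicate 1 or day 43 replicate 2, 0.98 under quantile normalization and 0.99 with a pseudocount of 5. A phenylalanine ammonia-lyase, VIT_08s0040g01710, had 7.39, 8.98 and 5.76 RPKM at day 63, against 2.63, 2.73 and 3.09 RPKM at day 43 (log2 change 1.12, SE 0.35, adjusted p = 0.00736). It was not called with a pseudocount of 5 (0.65), without day 63 replicate 2 (0.98) or as a slope over the 4 days (0.96). A second, VIT_06s0004g02620, had 35.2, 31.6 and 27.9 RPKM at day 63, against 13.3, 13.9 and 18.3 RPKM at day 43 (log2 change 1.02, SE 0.41, adjusted p = 0.0387). That call was lost without any 1 of 5 libraries (all but day 43 replicate 3), with an adjusted p of 0.0552 to 0.119, under quantile normalization (0.0804), and with a pseudocount of 0.1 (0.0598) or 5 (change 0.86). Over the whole list 6 genes were higher in all 3 day 63 libraries than in any day 43 library, a state that 28.6% of all genes tested shared.

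Stilbene synthesis branches off at the chalcone synthase step and yields resveratrol. MYB14 (VIT_07s0005g03340), which switches on stilbene synthases, had 3.01, 3.80 and 3.81 RPKM at day 63, against 0.857, 1.38 and 1.34 RPKM at day 43 (log2 change 1.05, SE 0.34, adjusted p = 0.00842). Days 49 and 56 were like day 43, with 0.877, 1.36 and 1.44 RPKM at day 49 and 1.27, 1.14 and 1.07 RPKM at day 56. Its call was lost with a pseudocount of 5 (0.46, adjusted p = 0.0531), without day 43 replicate 1 (0.94, adjusted p = 0.0519) and as a slope over the 4 days (0.95). MYB15 (VIT_05s0049g01020), the second stilbene regulator, had 35.2, 31.6 and 29.0 RPKM at day 63, against 42.4, 37.6 and 46.2 RPKM at day 43 (log2 change -0.39, SE 0.27, adjusted p = 0.298). Of 49 identifiers in the stilbene synthase runs on chromosomes 16 and 10, 43 were tested, 4 were called higher and none lower (median 0.04). VIT_16s0100g01030 had 8.54, 11.3 and 6.19 RPKM at day 63, against 2.06, 2.75 and 2.87 RPKM at day 43 (log2 change 1.41, SE 0.39, adjusted p = 0.00189). VIT_16s0100g01200 had 2.38, 3.79 and 1.91 RPKM at day 63, against 0.472, 0.196 and 0.464 RPKM at day 43 (log2 change 1.40, SE 0.40, adjusted p = 0.00268). The other 2, VIT_16s0100g01100 and VIT_16s0100g00770, changed by 1.19 and 1.11, and both calls were lost without day 63 replicate 2 (1.06 and 0.92). Levels of all 4 stayed under 12 RPKM, and with a pseudocount of 5 none was called. These genes are near-identical copies, so reads may have been split between them. Groups did not overlap for 19 of the 43 that were higher at day 63 and 2 that were lower, against 28.6% and 27.1% of all genes tested.

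**Figure D3:**
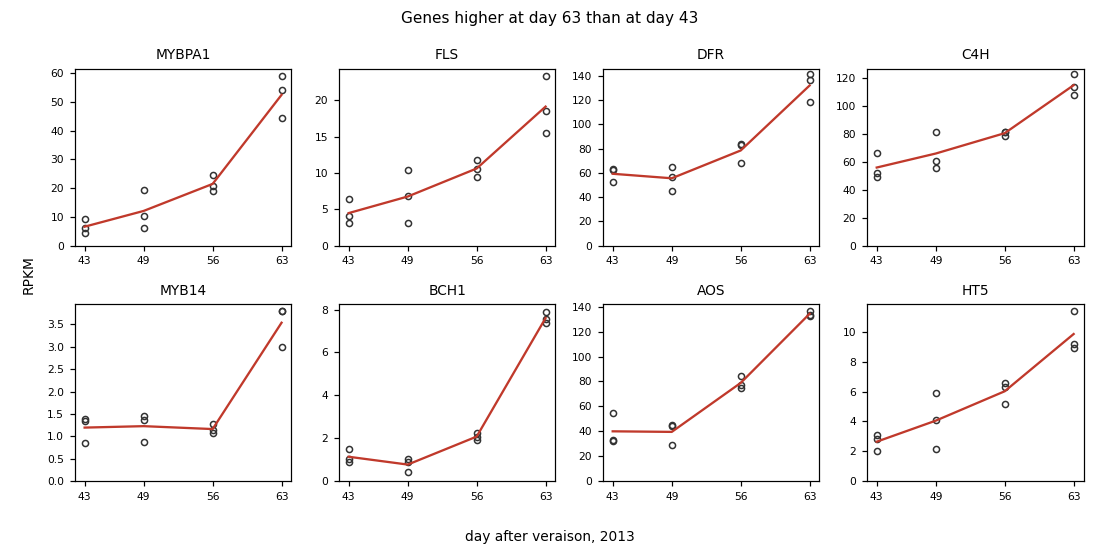
RPKM (vertical axes, each from 0) against day after veraison for 8 genes called higher at day 63 than at day 43. Circles are single libraries, 3 a day, and lines join the means; MYB14 has its high libraries at day 63 alone, while the means of HT5 and FLS are higher at each time point than at the one before.

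Genes of abscisic acid synthesis and response were higher in 2 of 10 cases and lower in none (median 0.45). PP2C (VIT_11s0016g03180), a phosphatase of the hormone's receptor complex, had 52.8, 61.9 and 58.1 RPKM at day 63, against 18.8, 21.8 and 23.5 RPKM at day 43 (log2 change 1.39, SE 0.20, adjusted p = 2e-09). DHN1 (VIT_04s0023g02480), a dehydrin that responds to abscisic acid and drought, had 96.8, 107 and 93.0 RPKM at day 63, against 48.2, 24.5 and 28.1 RPKM at day 43 (log2 change 1.59, SE 0.52, adjusted p = 0.0096). Day 56 replicate 2 stood higher still at 169.5 RPKM, and the call was lost without day 43 replicate 2 (1.40, adjusted p = 0.0503). The synthesis enzyme NCED3 (VIT_19s0093g00550) was low throughout, with 4.26, 3.44 and 4.61 RPKM at day 63, against 3.01, 2.59 and 4.00 RPKM at day 43 (log2 change 0.29, SE 0.43, adjusted p = 0.696). NCED2 (VIT_10s0003g03750), its relative, had 5.25, 5.44 and 6.00 RPKM at day 63, against 3.48, 2.46 and 4.01 RPKM at day 43 (log2 change 0.62, SE 0.28, adjusted p = 0.076). In the ethylene list, ACO (VIT_11s0016g02380), an oxidase of the last synthesis step, was the 1 of 3 called. It had 8.48, 10.8 and 11.4 RPKM at day 63, against 25.5, 27.0 and 23.6 RPKM at day 43 (log2 change -1.24, SE 0.47, adjusted p = 0.0285). Its call was lost without any 1 of 4 libraries (day 63 replicate 1 or 2, day 43 replicate 1 or 2), with an adjusted p of 0.0536 to 0.0898, and with a pseudocount of 0.1 (0.088).

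Carotenoid genes split, with 1 of 9 higher and 1 lower (median -0.26). PSY1 (VIT_04s0079g00680), the phytoene synthase at the start of the route, had 0.906, 0.851 and 0.741 RPKM at day 63, against 4.76, 2.68 and 3.58 RPKM at day 43 (log2 change -1.33, SE 0.24, adjusted p = 2.03e-06). BCH1 (VIT_02s0025g00240), a carotene hydroxylase, had 7.54, 7.39 and 7.89 RPKM at day 63, against 0.880, 1.03 and 1.48 RPKM at day 43 (log2 change 2.02, SE 0.29, adjusted p = 1.68e-09), most of it after day 56. Both are low genes, and with a pseudocount of 5 PSY1 fell by 0.57 and was not called. The dioxygenases CCD4 (VIT_02s0087g00910) and CCD4b (VIT_02s0087g00930), which cleave carotenoids, were not called (log2 change -0.12, SE 0.30, adjusted p = 0.843, and log2 change -0.59, SE 0.23, adjusted p = 0.0358). CCD4 had 94.3, 77.4 and 113 RPKM at day 63, against 87.0, 149 and 82.4 RPKM at day 43. Among oxylipin genes, 1 of 5 rose and 1 fell. LOXA (VIT_06s0004g01510), a lipoxygenase that starts the route from fatty acids, had 46.4, 32.0 and 27.8 RPKM at day 63, against 126, 89.3 and 109.6 RPKM at day 43 (log2 change -1.60, SE 0.27, adjusted p = 3.89e-07). AOS (VIT_18s0001g11630), the allene oxide synthase of the jasmonate branch, had 137, 133 and 133 RPKM at day 63, against 32.4, 33.1 and 54.3 RPKM at day 43 (log2 change 1.77, SE 0.34, adjusted p = 8.62e-06). Of 3 organic acid genes, L-IDH (VIT_16s0100g00290), an idonate dehydrogenase of tartaric acid synthesis, was the 1 called higher. It had 31.9, 43.0 and 35.0 RPKM at day 63, against 11.1, 11.0 and 14.0 RPKM at day 43 (log2 change 1.53, SE 0.25, adjusted p = 1.1e-07).

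Defence proteins make up much of the protein of ripe berries. Of 32 tested, 1 was called higher and 3 lower (median 0.09), against 2.78% and 3.69% of all genes tested. The class IV chitinase VIT_05s0094g00350 had 132, 77.4 and 29.6 RPKM at day 63, against 1277, 586 and 781 RPKM at day 43 (log2 change -3.61, SE 0.45, adjusted p = 1.86e-11), and its libraries between held 718, 457 and 314 RPKM at day 49 and 328, 480.1 and 582 RPKM at day 56. Every day 63 library lay below every library of the other days. VIT_05s0077g01580, in a run of PR10 proteins, had 241, 187 and 154 RPKM at day 63, against 553, 468 and 499.6 RPKM at day 43 (log2 change -1.40, SE 0.34, adjusted p = 0.000444). VIT_05s0077g01670 of the same run had 0.621, 0.382 and 0.274 RPKM at day 63, against 4.14, 2.48 and 2.31 RPKM at day 43 (log2 change -1.46, SE 0.46, adjusted p = 0.00693), and its call was lost with a pseudocount of 5 (-0.55, adjusted p = 0.143), without day 43 replicate 1 (-1.26, adjusted p = 0.0542) and as a slope over the 4 days (-0.97, adjusted p = 0.137). In a thaumatin-like run VIT_02s0025g04340 had 107, 138 and 86.6 RPKM at day 63, against 26.1, 22.6 and 30.4 RPKM at day 43 (log2 change 2.01, SE 0.48, adjusted p = 0.000304).

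Heat shock genes were higher in 4 of 26 cases and lower in 1 (median 0.18). VIT_13s0019g02930, in a run of small heat shock proteins, had 20.5, 39.3 and 45.5 RPKM at day 63, against 11.1, 12.2 and 10.4 RPKM at day 43 (log2 change 1.49, SE 0.52, adjusted p = 0.0162). Its highest library was day 49 replicate 3, and the other day 49 libraries lay within the day 63 range. The libraries between held 28.5, 33.1 and 86.1 RPKM at day 49 and 21.1, 39.2 and 20.8 RPKM at day 56. VIT_13s0019g03000 had 28.3, 55.1 and 64.4 RPKM at day 63, against 16.6, 18.2 and 15.8 RPKM at day 43 (log2 change 1.41, SE 0.49, adjusted p = 0.0152), with the same high library, day 49 replicate 3, at 126.7 RPKM. GOLS1 (VIT_07s0005g01970), a galactinol synthase that responds to heat, had 6.19, 14.6 and 9.30 RPKM at day 63, against 2.46, 3.28 and 2.96 RPKM at day 43 (log2 change 1.43, SE 0.52, adjusted p = 0.0226) and 18.0 RPKM in day 49 replicate 3. These 3 calls were lost without day 63 replicate 2 or 3, with changes of 1.15 to 1.45 and an adjusted p of 0.0509 to 0.134, and GOLS1 also without day 43 replicate 1 (0.075) and with a pseudocount of 5 (change 0.89). None of the 3 was called as a linear slope over the 4 days. All 3 were called higher at day 49 than at day 43, by 1.66 to 1.96. VIT_13s0019g03020, of the same run of identifiers, went down, with 8.36, 7.93 and 6.45 RPKM at day 63, against 18.2, 17.5 and 22.2 RPKM at day 43 (log2 change -1.24, SE 0.22, adjusted p = 1.11e-06). Its change was -0.95 and not called with a pseudocount of 5.

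**Figure D4:**
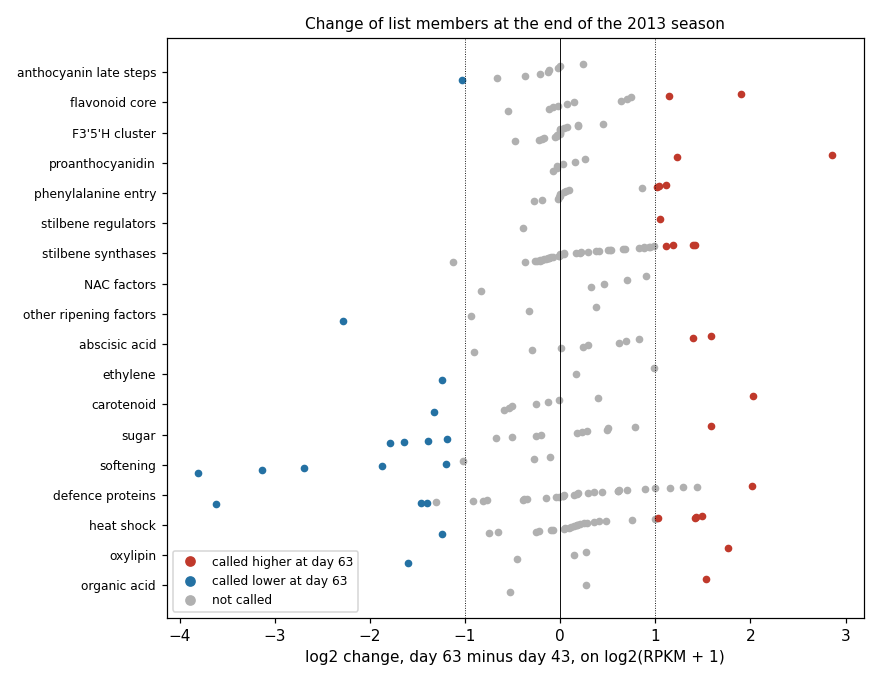
Log2 change between day 63 and day 43 on log2(RPKM + 1) (horizontal axis) for the 224 tested members of 18 gene lists (rows). Red points were called higher, blue points lower and grey points not called, and dotted lines mark a change of 1 in either direction; the softening list has 5 blue points and no red one.

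Over all lists 23 of 224 tested members were called higher and 18 lower, against 2.78% and 3.69% of all genes tested. Lists and members were chosen with earlier results of these data known, so these counts are no test of an excess. The same interval was available in 2 other seasons of the same vineyard, whose means do not enter the 2013 change, although their libraries shared its estimate of the error. Berries were less sweet there, with 25.0 ± 1.41 g per 100 ml at day 63 and 20.9 ± 0.732 at day 42 in 2014, and 21.5 ± 2.05 at day 63 and 19.5 ± 2.84 at day 42 in 2012 (SD, n = 3 each). Equal days are thus not equal sugar. Of the 595 genes higher at day 63 in 2013, 564 (94.8%) were also higher in 2014, against 56.2% of all genes tested, and 297 (49.9%) were called so there, against 2.55%. For the 791 lower genes the counts in 2014 were 754 (95.3% against 39.6%) and 342 (43.2% against 2.8%). In 2012, 484 of the higher genes (81.3% against 52.6%) and 694 of the lower genes (87.7% against 44.0%) had the same sign, and 60 (10.1% against 0.593%) and 162 (20.5% against 1.34%) were called.

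The change itself was then compared between seasons as an interaction term in the same limma fit. It differed from 2014 for 337 genes, with 126 more positive (0.588%) and 211 more negative (0.985%) in 2013. That split depended on scaling, with 180 and 143 under TMM factors and 148 and 135 under quantile normalization. It differed from 2012 for 774 genes, with 376 more positive (1.75%) and 398 more negative (1.86%) in 2013. Under a limma test against a log2 change of 0.5 these counts fell to 34 and 212, and every list member called against 2014 lost its call. Of the list members called against 2012, only BCH1, L-IDH, PP2C VIT_11s0016g03180, CCD4 and GIN2 kept their call in that test. Both comparisons use the same 2013 libraries. The 2012 libraries lie on the other side of the split described above, and its part in the differences from 2012 was not tested.

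SWEET10 fell less in 2013 than in 2014. Its change was -1.39 (SE 0.42) in 2013 and -4.13 (SE 0.42) in 2014, a difference of 2.73 (SE 0.60, adjusted p = 0.00106). TMT2 changed by -0.50 in 2013 and by -1.66 in 2014 (difference 1.16, SE 0.29, adjusted p = 0.00489). GIN2 had opposite signs, with 0.78 in 2013, -0.51 in 2014 and -0.59 in 2012, and both differences were called (1.30, adjusted p = 0.00014, and 1.37, adjusted p = 1.36e-05). These were 0.83 and 0.88, and not called, with a pseudocount of 5. EXPA18 fell more in 2013, with -3.80 against -0.84 in 2014 (difference -2.96, SE 0.76, adjusted p = 0.00751). ERF45 changed by -2.28 in 2013, against -0.76 in 2014 and -0.66 in 2012. The difference from 2014 (-1.52, adjusted p = 0.0289) was lost under TMM factors (adjusted p = 0.0532) and without any 1 of 7 libraries, among them day 63 replicate 3 of 2013 (-1.22, adjusted p = 0.148). The difference from 2012 (-1.62, adjusted p = 0.00911) was lost without that same library (-1.33, adjusted p = 0.0669).

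BCH1 changed by 2.02 in 2013, against 0.36 in 2014 and -0.67 in 2012, and both differences were called (1.67, adjusted p = 0.00403, and 2.69, adjusted p = 1.49e-07). The difference from 2014 was 0.92 and not called with a pseudocount of 5. CCD4b changed by -0.59 in 2013, against 0.64 in 2014 and 0.56 in 2012 (differences -1.24, adjusted p = 0.0102, and -1.15, adjusted p = 0.00945). CCD4 stood apart in 2012, with -0.12 in 2013 against 2.16 in 2012 (difference -2.28, adjusted p = 2.06e-05). FLS changed by -0.82 in 2012, DFR by -0.09 and LAR2 by -0.41. The 2013 changes given above exceeded these, with differences of 2.72 (adjusted p = 0.00348), 1.23 (adjusted p = 3.28e-05) and 1.64 (adjusted p = 0.0312). In 2014 FLS changed by 1.22, DFR by 0.62 and LAR2 by 0.65. Their differences of 2013 from 2014 were not called by the interaction term in limma (adjusted p = 0.714, 0.174 and 0.672). MYBPA1 changed by 2.85 in 2013, 2.26 in 2014 and 0.98 in 2012, and differed from 2012 by 1.87 (adjusted p = 0.0148). L-IDH (difference 2.06, adjusted p = 3.37e-06), AOS (1.74, adjusted p = 0.00698), PP2C VIT_11s0016g03180 (1.58, adjusted p = 9.49e-06) and the thaumatin-like VIT_02s0025g04340 (2.54, adjusted p = 0.00455) also changed more positively in 2013 than in 2012. NAC60 changed by 0.90 in 2013, against -0.36 in 2012 (difference 1.26, adjusted p = 0.00537). EXPB4 changed by -2.70 in 2013, against -0.12 in 2012 (difference -2.58, adjusted p = 0.0379), a call lost without any 1 of 7 libraries and with a pseudocount of 0.1 (adjusted p = 0.15).

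**Figure D5:**
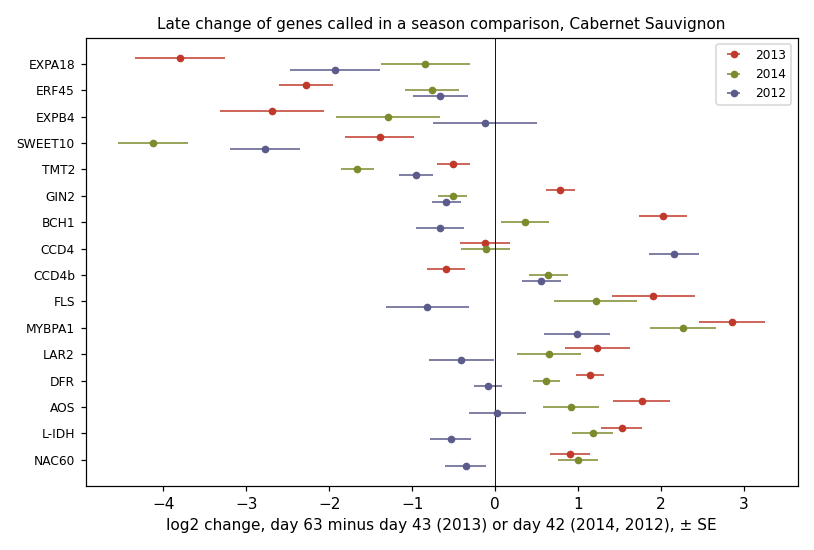
Log2 change on log2(RPKM + 1) with its SE (horizontal axis) for 16 genes called in a season comparison, in 2013 (day 63 minus day 43), 2014 and 2012 (day 63 minus day 42), 3 libraries a group. SWEET10 lies farthest left in 2014 at -4.13, and EXPA18 in 2013 at -3.80.

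Among genes known by identifier alone, those with the largest changes included on and off values. VIT_14s0030g01920 was listed at 0 in all 3 day 43 libraries and had 22.9, 12.1 and 24.0 RPKM at day 63. VIT_15s0048g01280 was also listed at 0 at day 43 and had 8.50, 18.0 and 26.3 RPKM at day 63. An exact 0 may be a failed estimate, and among the 6 libraries of days 49 and 56 VIT_14s0030g01920 was at 0 in 3 and VIT_15s0048g01280 in 2. VIT_11s0149g00240 had 210.5, 0 and 2.39 RPKM at day 63, against 225.6, 242.5 and 222.5 RPKM at day 43, so that 1 day 63 library was close to the day 43 level. Its call was lost in fits of the 12 libraries (adjusted p = 0.166) or the 6 of both days (0.0929). VIT_13s0064g00460 fell more evenly, with 7.29, 4.22 and 2.95 RPKM at day 63, against 190.5, 67.9 and 97.7 RPKM at day 43 (log2 change -4.30, SE 0.38, adjusted p = 3.16e-19).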

How the data were processed

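RNA-seq libraries were non-directional, per the labels' protocols, so antisense genes cannot be told apart. The authors deposited RPKM per gene, and TopHat2 2.0.6 and Cufflinks 2.0.2 are named in the submitters' processing notes. Sources used here give no genome build or annotation, and the depth per library is unknown. Of 29971 genes, 21425 that reached 1 RPKM in 3 or more libraries were tested with limma 3.58.1 (R 4.3.3) on log2(RPKM + 1). All libraries of the series entered 1 fit of 73 group means with 146 residual degrees of freedom, trend and robust settings. Fold changes on this scale understate those of low genes. Calls needed a Benjamini-Hochberg adjusted p under 0.05 and a log2 change of at least 1. Nothing states that replicate numbers pair samples across days. The p-values measure the spread between pooled samples of vine blocks within all 73 groups. The SE of a gene is thus not the spread at day 43 and day 63 alone. Gene lists and members were chosen with earlier results of these data known. Named genes were, per list, up to 4 called members with the largest change, or up to 2 of the highest mean RPKM where none was called. List members called in a season comparison and MYBA1, UFGT, GST4, NCED3 and NAC33 were added. By identifier alone, 2 higher and 2 lower genes with the largest change, a mean of at least 5 RPKM over the 12 libraries and no overlap were taken. HT3, EXPA19, XTH, bHLH75, SWEET15, CHS2, CHS3, MYB15, ANR and LAR1 were named after their values were seen. Alternatives were other pseudocounts (0.1 and 5), filters, scalings, a test against a log2 change of 0.5, other sets of libraries in the fit, a replicate block, a slope on day and leaving out each library.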

Additional observations from a re-analysis of the deposited data

Results flagged for a closer look

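Several changes from day 42 or 43 to day 63 differed between seasons by the interaction term in limma, with 337 genes called for 2013 against 2014 and 774 for 2013 against 2012. Differences are the change in 2013 minus that in the other season, on the log2 scale. Against 2014, list members with a more positive change in 2013 were SWEET10 (2.73), VIT_05s0094g00360 (1.86), BCH1 (1.67), GIN2 (1.30) and TMT2 (1.16). Those with a more negative one were EXPA18 (-2.96), ERF45 (-1.52), CCD4b (-1.24) and VIT_13s0019g03020 (-1.14). VIT_05s0094g00360 had at most 2.54 RPKM in the 12 libraries, and its call was lost without any 1 of 7 libraries. All of these members lost their call against 2014 under the limma test against a log2 change of 0.5. Among them SWEET10 had an adjusted p of 0.0675 and EXPA18 of 0.249 in that test.

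Against 2012, a more positive change in 2013 was called for FLS (2.72), BCH1 (2.69), VIT_02s0025g04340 (2.54), L-IDH (2.06), MYBPA1 (1.87), AOS (1.74), PAL VIT_06s0004g02620 (1.68), LAR2 (1.64), NCED2 (1.61), PP2C VIT_11s0016g03180 (1.58), GIN2 (1.37), NAC60 (1.26) and DFR (1.23). A more negative one was called for EXPB4 (-2.58), VIT_05s0094g00350 (-2.56), CCD4 (-2.28), ERF45 (-1.62), VIT_13s0019g03170 (-1.45), VIT_13s0019g03020 (-1.16) and CCD4b (-1.15). Under the limma test against a log2 change of 0.5, only BCH1, L-IDH, PP2C VIT_11s0016g03180, CCD4 and GIN2 kept their call against 2012. Among those lost, the adjusted p in that test was 0.0721 for VIT_05s0094g00350, 0.0846 for DFR, 0.112 for VIT_02s0025g04340, 0.273 for AOS and 0.485 for NAC60. MYBPA1 was lost without any 1 of 3 libraries, LAR2 without any 1 of 5, and VIT_06s0004g02620 without any 1 of 7. VIT_13s0019g03020 was lost in both comparisons under quantile normalization, against 2014 also without day 42 replicate 2 of 2014 (-1.01, adjusted p = 0.0585), and against 2012 without day 42 replicate 2 of 2012 (-0.74, adjusted p = 0.117). With a pseudocount of 5 it was lost in both (-0.86 each), as were NCED2 (0.95) and LAR2 (0.96) against 2012. With a pseudocount of 0.1 the calls against 2012 of FLS (adjusted p = 0.0629), MYBPA1 (0.0513) and VIT_06s0004g02620 (0.0547) were lost. In 2013 the berries held 27.1 ± 0.692 g per 100 ml sugar at day 63 and 23.8 ± 1.13 at day 43 (SD, n = 3 each), above both other seasons, and the part of sugar content in these differences was not tested.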

How the results depend on the processing

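With a pseudocount of 0.1 the count for day 63 against day 43 was 2565, those of the 3 steps 234, 267 and 980, and those of the season differences 586 (2014) and 1198 (2012). With a pseudocount of 5 they were 607, then 43, 37 and 138, then 119 and 345. Genes with the same sign from day 49 to 56 then numbered 821 of 1026 higher and 1252 of 1539 lower (pseudocount 0.1), 245 of 264 and 270 of 343 (pseudocount 5), and 274 of 317 higher under a filter on mean RPKM (5 or more). Called list members on the higher side numbered 11 with a pseudocount of 5. A limma test against a log2 change of 0.5 left 0, 9 and 151 genes in the steps, 34 and 212 in the season differences, and 8 higher and 11 lower list members. For day 49 against day 43, 4348 genes had an unadjusted p under 0.05. Leaving out 1 library gave 1191 to 1554 genes for day 63 against day 43, 36 to 174, 50 to 146 and 329 to 545 for the steps, 234 to 368 (2014) and 631 to 879 (2012) for the season differences, 15 to 26 higher (15 without day 63 replicate 2) and 14 to 19 lower list members, and 2.61 to 3.63 g per 100 ml for sugar. Of 42 named genes called at day 63 against day 43, 28 were called under every left-out library, 21 were lost under the test against 0.5, 16 were called under all 19 settings and 0 changed sign. The fits of 12 or 6 libraries gave 1410 and 1409 genes, and that of the libraries on the same side of the library split, chosen after seeing the data, 1396.

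No pairing of samples by replicate number was seen, but 3 libraries a day are too few to exclude it. Deviations of same-numbered day 63 and day 43 libraries correlated by 0.17, 0.03 and -0.12 for replicates 1, 2 and 3, and 1 of 3 day 63 libraries correlated best with its own number. With a replicate block the counts were 1385 for day 63 against day 43, 109, 109 and 410 for the steps and 334 and 777 for the season differences. Depth is unknown, so no floor can be set for low genes.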
